A study of Mus musculus with 36 samples.

Results

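The genes described here are 39 of the unfolded protein response, the integrated stress response and the heat shock response, chosen by name from the 21955 gene symbols that each table of counts listed. The tables came from liver of C57BL/6JN mice, an inbred laboratory strain, taken as regeneration proceeded. Young mice were 4 months old and old mice 18 months old, and each age was sampled at 6 time points, labelled before, 48, 72, 96, 120 and 240, with 3 biological replicates in each of the 12 groups and 36 libraries in all. The labels give no unit for the time points, no way in which regeneration was induced, no sex and no genetic modification, so both ages are described only by strain, age and time label. The labels name old age as the treatment, and young mice at the same time point, or the same age before, served as the reference. The labels call the libraries biological replicates and do not say whether each came from a separate animal.

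Secretory cells such as hepatocytes fold much of their protein in the endoplasmic reticulum (ER). When unfolded protein builds up there, the sensors IRE1 (gene Ern1), ATF6 and PERK raise the production of chaperones, of folding enzymes and of the machinery that sends misfolded protein out for degradation. PERK also feeds the integrated stress response, in which phosphorylation of the initiation factor eIF2 slows general translation and favours that of ATF4, whose targets serve amino acid supply and, under lasting stress, cell death. The heat shock response is the matching programme of the cytosol and nucleus, driven by HSF1 and its chaperone targets. Regenerating liver makes much new protein and membrane, and both programmes are commonly studied there.

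Of the 39 members, 22 belong to the ER arm, 10 to the integrated stress response and 7 to the heat shock response. The ER arm holds 14 chaperones and folding factors, 5 members of ER-associated degradation and 3 grouped as sensors. Of these 3, Ern1 and Atf6 encode sensors and Xbp1 acts downstream of IRE1. A total of 38 passed the filter on low counts and were tested among 13436 genes. Hspa1a, which encodes an inducible HSP70, did not pass, at 0 to 3.73 CPM over the 36 libraries with a median of 0.754 CPM, where CPM is the count scaled to its library's total after TMM normalization. Its near-identical neighbour Hspa1b passed. The longest open reading frames of the annotated transcripts, 1926 and 1929 bases long, were identical at 1890 positions (98.1%) when laid side by side from the start codon, so reads could be split between the pair and both values are uncertain.

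Promoters were read for the 34 members with an entry in RefSeq's promoter table (build GRCm38.p6). Hyou1, Manf, Atf6, Hspa8 and Hsp90aa1 had none. The 250 bases before each gene's start were searched on both strands for the ER stress element, spelled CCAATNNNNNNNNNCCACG, which NF-Y and ATF6 are known to bind together. It was found in 9 of the 34 members (26.5%) and in 35 of all 27025 genes (0.13%). The matches are printed because they show the element in 7 chaperones and folding factors and in Derl3 and Syvn1 of ER-associated degradation. Capitals mark the element, each sequence runs 5′ to 3′ in the direction of the element, and 15 bases on each side are given.

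Hspa5, chr2:34772010-34772058, plus strand: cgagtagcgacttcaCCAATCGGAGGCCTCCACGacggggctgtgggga
Hsp90b1, chr10:86705623-86705671, minus strand: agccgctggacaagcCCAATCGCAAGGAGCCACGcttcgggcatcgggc
Hsp90b1, chr10:86705518-86705566, plus strand: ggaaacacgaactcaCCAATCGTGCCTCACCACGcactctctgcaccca
Pdia6, chr12:17266476-17266524, plus strand: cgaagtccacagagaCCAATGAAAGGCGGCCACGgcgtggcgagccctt
Calr, chr8:84847060-84847108, plus strand: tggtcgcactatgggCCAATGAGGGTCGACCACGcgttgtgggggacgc
Canx, chr11:50325785-50325833, minus strand: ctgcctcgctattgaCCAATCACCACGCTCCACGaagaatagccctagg
Dnajc3, chr14:118937812-118937860, plus strand: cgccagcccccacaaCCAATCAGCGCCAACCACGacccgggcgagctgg
Creld2, chr15:88819505-88819553, minus strand: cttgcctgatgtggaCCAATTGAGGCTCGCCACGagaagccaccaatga
Derl3, chr10:75893227-75893275, minus strand: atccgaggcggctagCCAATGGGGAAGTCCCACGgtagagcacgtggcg
Syvn1, chr19:6046517-6046565, plus strand: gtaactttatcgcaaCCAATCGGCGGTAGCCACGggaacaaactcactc

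The amino acid response element, spelled TGATGNAA and bound by ATF4 with a partner, was found in 5 of the 34 members (14.7%) and in 1056 of the 27025 genes (3.91%). The 5 matches are shown because they fall mostly in members of the integrated stress response. The other members of that arm, Ddit3, Atf4, Atf5, Trib3, Ppp1r15a and Sesn2, held none in this window.

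Herpud1, chr8:94386302-94386339, minus strand: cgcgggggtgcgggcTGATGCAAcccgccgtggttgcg
Chac1, chr2:119351034-119351071, minus strand: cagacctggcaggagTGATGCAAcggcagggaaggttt
Asns, chr6:7693210-7693247, minus strand: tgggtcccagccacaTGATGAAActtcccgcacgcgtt
Nupr1, chr7:126625558-126625595, plus strand: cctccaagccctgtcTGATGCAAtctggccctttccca
Fgf21, chr7:45615607-45615644, plus strand: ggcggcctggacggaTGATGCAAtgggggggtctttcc

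The unfolded protein response element TGACGTG was found in Hspa5 alone among the 34 members, against 1.85% of all genes. The heat shock element GAANNTTCNNGAA was found in 0 of the 34 and in 0.514% of all genes. Of the heat shock members, only Hspa1a, Hspa1b, Hsph1, Hspb1 and Dnajb1 were among the 34. The spelling allowed no mismatch, so looser forms of the element were not searched. A match describes these letters in this window only.

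Total counts ranged from 2328233 to 6034446 per library (median 4439170), so that 3 counts corresponded to 0.49 to 1.29 CPM. The hepatocyte marker list summed to between 42700 and 71700 CPM in the 36 libraries. In bulk tissue, fewer cells of a type and less RNA per cell cannot be told apart. A total of 12 libraries, 1 in each group, held Y-linked transcripts (a sum of at least 176 CPM, against at most 0.212 CPM in the others), which the labels do not mention. In old liver at 48, replicate 1 is such a library, and replicate 2 stood apart from the others. Replicate 2 had a cell cycle marker sum of 62.9 CPM against 365 and 796 CPM in replicates 1 and 3, and a cholangiocyte marker sum of 215 CPM against 67.9 and 56.6 CPM. Of the cholangiocyte markers, Spp1 had the highest mean in old liver at 48, at 95.4 CPM, with Sox9 next at 13.7 CPM. In replicate 2 the sum of the cold-inducible genes Cirbp and Rbm3 was 79.6 CPM against 46.6 and 42.5 CPM, the highest of the 36 libraries. Their part in the results at 48 was not tested beyond the fits without each library given below.

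Over the 10 comparisons of a later time point with before, the most members were called in old liver at 48. There 23 of 38 were called at an adjusted p under 0.05 (edgeR's quasi-likelihood test with Benjamini-Hochberg adjustment over all 13436 genes), 21 higher and 2 lower. The background was 12.1% of all genes higher and 12% lower. The median log2 fold change of the members was 0.91, with 35 of 38 above 0, while the median of all genes was 0.01. In young liver at 48, 3 members were called, 1 higher and 2 lower, against 12.2% and 9.79% of all genes, and the members' median was 0.04. The 2 comparisons share no library.

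**Figure D1:**
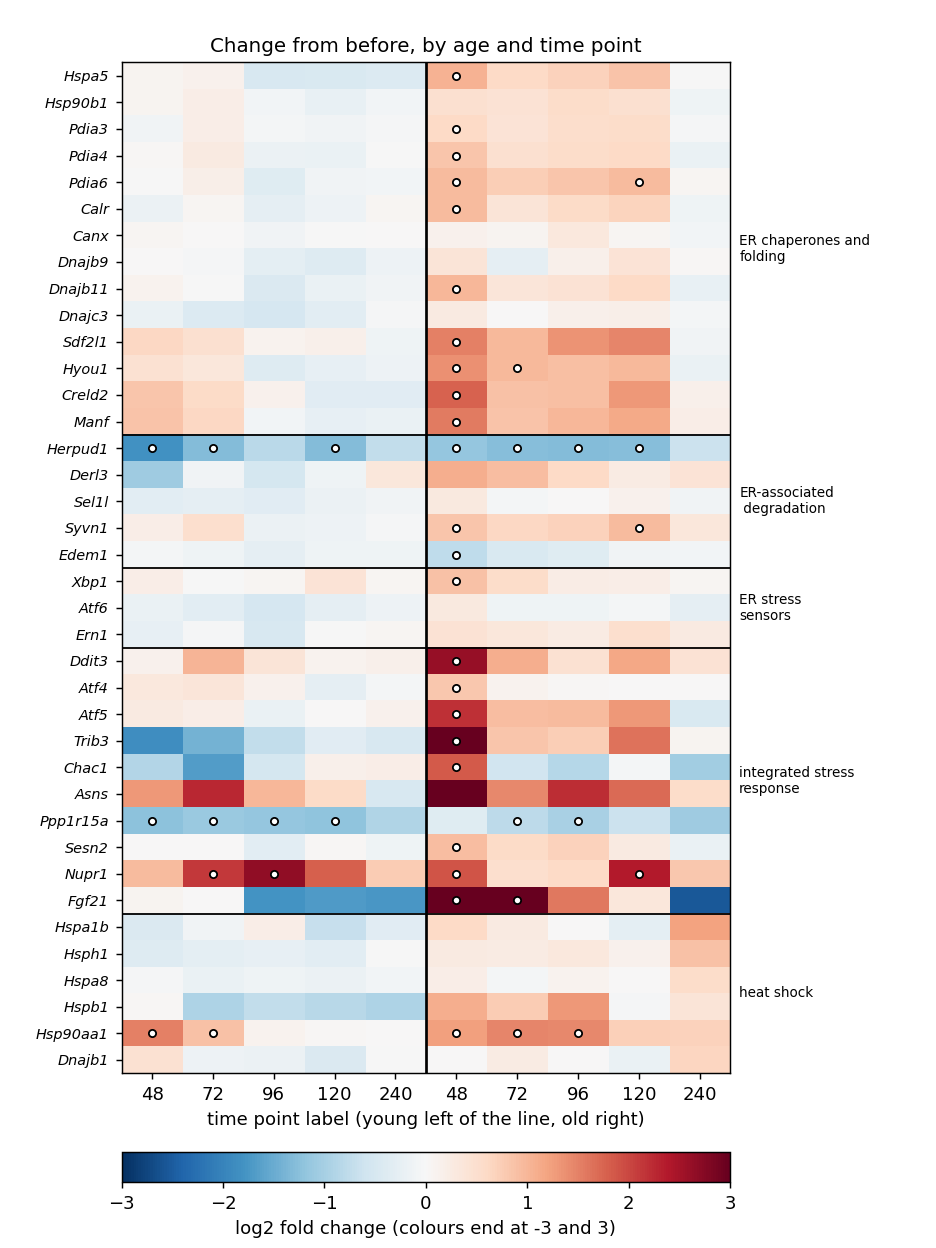
Log2 fold change of the 38 tested members (rows, by role) from before to each later time point in young (left of the line) and old (right) liver, with a white dot where the adjusted p was under 0.05. The column of old liver at 48 holds 23 dots and that of young liver at 48 holds 3.

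At later time points few members were called in the main analysis. Several alternative fits, given below, called more members in old liver at 72, 96 and 120, and others called fewer. In young liver, 4 were called at 72 (2 higher against a background of 9.21%, 2 lower against 8.21%), 2 at 96 (1 higher against 0.662%, 1 lower against 0.737%), 2 at 120 (0 higher against 0.216%, 2 lower against 0.365%) and 0 at 240 (0.0521% of all genes higher and 0.194% lower). In old liver, 5 were called at 72 (3 higher against 6.54%, 2 lower against 5.81%), 3 at 96 (1 higher against 3.76%, 2 lower against 3.07%, or 5 higher and 2 lower with the replicate number as a block), 4 at 120 (3 higher against 1.85%, 1 lower against 2.02%) and 0 at 240 (0.0149% higher and 0.141% lower). At an unadjusted p under 0.05, 16, 15 and 19 members passed in old liver at 72, 96 and 120. The shares of all genes were 27.5%, 22.1% and 19.3%. In young liver 9, 6 and 3 members passed at the same time points, against 31.2%, 15.3% and 12% of all genes. At 240, 2 members passed in young liver (5.11% of all genes) and 6 in old liver (7.67%), and DESeq2 called 0 and 1. The members' median log2 fold change in old liver was 0.46 at 72, 0.53 at 96, 0.45 at 120 and -0.01 at 240. The young medians were 0, -0.26, -0.19 and -0.09 at the same time points. Pdia6 (0.94 ± 0.27, adjusted p = 0.0453) and Syvn1 (0.95 ± 0.22, adjusted p = 0.0153) were among those called higher in old liver at 120, and both calls were lost without old replicate 2 at 120 or replicate 2 or 3 before.

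Between the ages at the same time point, 9 members were higher in old liver at 48 and 0 were lower, against 4.42% and 6.78% of all genes. They were Atf4, Atf5, Chac1, Ddit3, Fgf21, Nupr1 and Trib3 of the integrated stress response, and Calr and Derl3 of the ER arm. No member was called before (background 0.0595%), at 72 (0%), at 96 (0.171%), at 120 (0%) or at 240 (0.0149%). At an unadjusted p under 0.05, 2, 3, 7, 9 and 9 members passed in these comparisons. The shares of all genes were 6.91%, 4.86%, 13.2%, 9.83% and 4.92%, and DESeq2 called 0, 0, 1, 0 and 0 members. Averaged over the 6 time points, Atf5, Hspb1 and Nupr1 were higher in old liver and 0 members lower, against 3.39% and 2.59% of all genes. In the test of whether the course over time differed between the ages, Calr, Nupr1 and Trib3 were called, against 2.76% of all genes. For the change from before to 48, Trib3 alone was called as different between the ages (0.38% of all genes were higher and 1% lower). At an unadjusted p under 0.05, 19 members passed for that change, against 15.9% of all genes, and DESeq2 called 4. For the changes to 72, 96, 120 and 240, 0 members differed, against 0%, 0.0149%, 0.00744% and 0% of all genes. At an unadjusted p under 0.05 these 4 counts were 3, 16, 12 and 0, against 4.55%, 9.21%, 6.89% and 1.33% of all genes. DESeq2 called 0 members in each.

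Of the 21 members that rose in old liver at 48, ER chaperones and folding factors were the most numerous. There 10 of the 14 rose and 0 fell, with a median log2 fold change of 0.95. They were Hspa5 (BiP, the master chaperone of the ER and the brake on its sensors), the disulfide isomerases Pdia3, Pdia4 and Pdia6, the lectin chaperone Calr, the BiP cochaperones Dnajb11 and Sdf2l1, the nucleotide exchange factor Hyou1, and the secreted stress proteins Creld2 and Manf. The remaining 4, Hsp90b1, Canx, Dnajb9 and Dnajc3, had log2 fold changes of 0.13 to 0.48. In young liver at 48, 0 of the 14 passed, with changes between -0.21 and 0.86.

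Hspa5 stood at 1830, 1550 and 1460 CPM in old liver before and at 3520, 3140 and 3340 CPM at 48. The groups did not overlap, and the log2 fold change was 1.04 ± 0.31 (SE, adjusted p = 0.0142). Hspa5 in young liver was 1620, 2400 and 3620 CPM before and 2140, 2340 and 3580 CPM at 48, groups that overlapped (0.08 ± 0.30, adjusted p = 0.885). Over the 36 libraries the gene ranged from 1300 to 4310 CPM, so young replicate 3 before already lay high in that range.

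Manf had the smallest p of the chaperone group. Manf in old liver was 31.5, 20.1 and 9.11 CPM before, then 54, 62.7 and 62.9 at 48, then 33, 47 and 30.8 at 72, then 44.6, 44.6 and 31.7 at 96, then 44, 60.6 and 29.4 at 120, and 25, 17.7 and 26.1 at 240. All old libraries at 48 lay above all old libraries before, with a log2 fold change of 1.56 ± 0.34 (adjusted p = 0.00173). Manf in young liver was 19.3, 33 and 40.1 CPM before, then 52.1, 39 and 76.5 at 48, then 41.2, 45.1 and 55.4 at 72, then 43.2, 19.9 and 23.2 at 96, then 20.2, 27.9 and 29.6 at 120, and 27.3, 26.1 and 27.3 at 240. Its change to 48 in young liver was 0.86 ± 0.33 (adjusted p = 0.0633), and the difference between the ages in that change was 0.70 ± 0.47 (adjusted p = 0.509).

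Hyou1 was 362, 214 and 177 CPM in old liver before, then 732, 542 and 688 at 48, then 399, 635 and 450 at 72, then 612, 430 and 369 at 96, then 552, 601 and 329 at 120, and 260, 185 and 211 at 240. It rose at 48 (1.38 ± 0.31, adjusted p = 0.00187) and at 72 (0.98 ± 0.30, adjusted p = 0.0333, lost without replicate 2 or 3 of either group), and at 96 and 120 the changes of 0.90 and 0.97 had adjusted p of 0.0683 and 0.0624. The young values were 292, 381 and 447 CPM before, then 409, 360 and 767 at 48, then 432, 399 and 599 at 72, then 385, 237 and 231 at 96, then 379, 288 and 282 at 120, and 330, 254 and 424 at 240. Young replicate 3 at 48 held the highest value of all 36 libraries, while the other young libraries at 48 lay within the range before.

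Calr, which retains and folds glycoproteins and buffers ER calcium, was called for a different course between the ages (interaction adjusted p = 0.0339). Calr in old liver was 1050, 844 and 589 CPM before, then 1940, 1400 and 1450 at 48, then 960, 1220 and 1050 at 72, then 1530, 962 and 1190 at 96, then 1500, 1320 and 1120 at 120, and 829, 716 and 709 at 240. Calr in young liver was 985, 1310 and 1040 CPM before, then 912, 789 and 1270 at 48, then 1040, 1050 and 1370 at 72, then 1040, 833 and 903 at 96, then 1210, 820 and 976 at 120, and 1250, 1040 and 1230 at 240. The old libraries at 48 lay above all young libraries at 48 (0.69 ± 0.22, adjusted p = 0.036), and those at 240 lay below all young libraries at 240 (-0.64 ± 0.22, adjusted p = 0.777). The call at 48 between the ages was lost without replicate 1 or 2 of either age.

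**Figure D2:**
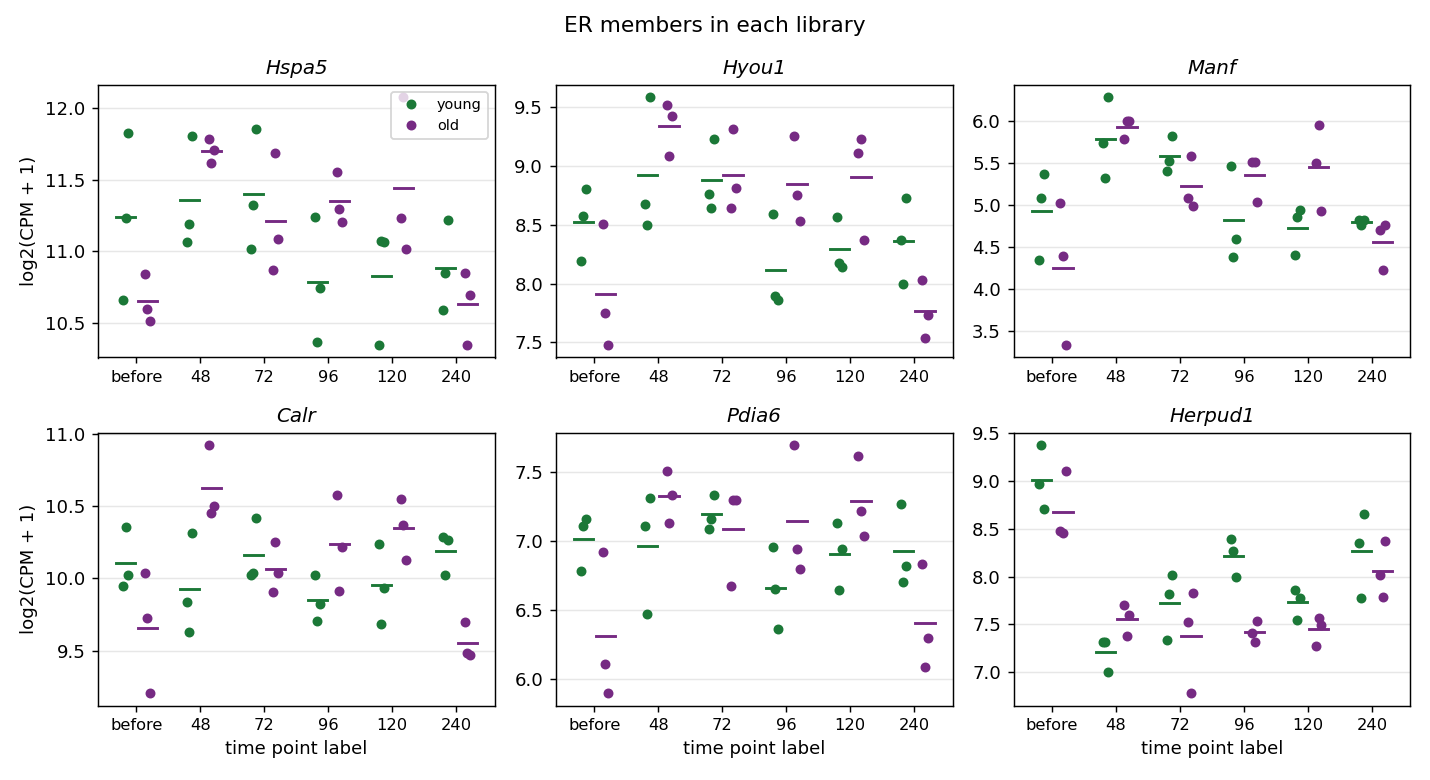
Level of 6 ER members as log2(CPM + 1) in each library (points) by time point label, young in green and old in purple, with the mean of the 3 libraries as a bar. Hspa5, Hyou1, Manf and Calr had their highest group mean in old liver at 48, and Herpud1 its highest in young liver before.

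Among the old libraries before, replicate 3 held the lowest value of the 36 libraries for Pdia3, Pdia4, Pdia6, Calr, Sdf2l1, Hyou1, Manf, Syvn1 and Xbp1. Without it, 15 members were called in old liver at 48, and the 8 lost were Creld2, Hspa5, Pdia3, Pdia4, Pdia6, Sdf2l1, Chac1 and Edem1. Creld2, Hspa5, Pdia6, Sdf2l1 and Chac1 were also lost without replicate 2 before. Before, all 14 chaperones and folding factors had lower means in old than in young liver (median -0.44, 0 called). At 240 they were again all lower in old liver (median -0.37, 0 called), and at 96 all higher (median 0.41, 0 called). The ER members moved together within libraries, so the 14 are not separate observations. Of the 22, 4 lay above the group mean in old replicate 3 before and 18 in old replicate 1 at 96.

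ER-associated degradation did not move in 1 direction. In old liver at 48, Syvn1, the ubiquitin ligase at the core of the pathway, rose (0.83 ± 0.22, adjusted p = 0.00751), and Edem1, which extracts mannose-trimmed glycoproteins, fell (-0.76 ± 0.21, adjusted p = 0.0086), a call also lost without old replicate 2 at 48. Sel1l, the partner of Syvn1, changed by 0.29 ± 0.19 (adjusted p = 0.276).

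Herpud1, a membrane scaffold of the same complex and a textbook target of ER stress, fell in both ages. Herpud1 in young liver was 499, 663 and 417 CPM before, then 159, 159 and 127 at 48, then 161, 225 and 258 at 72, then 335, 308 and 254 at 96, then 232, 186 and 219 at 120, and 326, 219 and 404 at 240. Herpud1 in old liver was 356, 351 and 550 CPM before, then 208, 165 and 193 at 48, then 183, 109 and 226 at 72, then 169, 159 and 185 at 96, then 154, 189 and 180 at 120, and 259, 220 and 330 at 240. Every library at 48, 72, 96 and 120 lay below every library before of the same age. It fell by 1.82 ± 0.25 on the log2 scale at 48 in young liver (adjusted p = 5.07e-06) and by 1.15 ± 0.24 in old liver (adjusted p = 0.00107), and the difference between those changes was 0.67 ± 0.34 (adjusted p = 0.329). The fall was also called in young liver at 72 and 120 (the latter lost without young replicate 2 before) and in old liver at 72, 96 and 120 (the last lost without old replicate 3 before). Its direction was opposite to that of Hspa5, Manf and Hyou1 in the same old libraries.

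Derl3, a channel component found in professional secretory cells, was scarce. Derl3 in young liver was 2.29, 3.73 and 1.21 CPM before, then 1.31, 1.03 and 0.984 at 48, then 1.72, 1.7 and 3.3 at 72, then 1.67, 2.09 and 1.1 at 96, then 1.36, 2.96 and 2.28 at 120, and 4.78, 2.04 and 2.41 at 240. Derl3 in old liver was 1.87, 1.78 and 0.911 CPM before, then 1.78, 3.84 and 4.09 at 48, then 3.07, 3.04 and 2.68 at 72, then 2.57, 2.48 and 1.97 at 96, then 2.98, 0.91 and 1.63 at 120, and 1.76, 2.04 and 2.33 at 240. It was higher in old than in young liver at 48 (1.51 ± 0.45, adjusted p = 0.0272), a call lost without any single young library at 48 or without old replicate 2 or 3. Plasma cells express Derl3 and Xbp1 strongly. The 8 plasma cell and B cell markers found in the tables summed to 20 to 48.2 CPM in old liver before and to 5.55 to 13.9 CPM at 48, and 3 of the 5 tested were lower at 48 with 0 higher. Tnfrsf17, a defining marker of plasma cells, was at 0 in 29 of 36 libraries and Mzb1 in 11. In young liver the same sum was 7.9 to 12.8 CPM before and 3.2 to 7.34 CPM at 48. The part of these cells in the values was not tested.

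Of the members grouped as sensors, Xbp1 is not itself a sensor but the transcription factor whose message IRE1 splices. Xbp1 rose in old liver at 48 (0.88 ± 0.20, adjusted p = 0.00235). It was 284, 183 and 165 CPM before and 400, 476 and 293 CPM at 48, so the groups did not overlap. The counts do not distinguish its spliced form. Neither sensor was called, with changes of 0.29 ± 0.15 for Atf6 (adjusted p = 0.165) and 0.43 ± 0.23 for Ern1 (adjusted p = 0.176). Ern1 was 102, 29.7 and 97 CPM at 48, with replicate 2 the lowest of all 36 libraries.

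Set beside the promoter sequences above, 5 of the 9 members with an ER stress element rose in old liver at 48 (Hspa5, Pdia6, Calr, Creld2 and Syvn1), with a median log2 fold change of 0.95 over the 9. Of the 24 tested members with a promoter entry and no such element, 13 rose and 2 fell, with a median of 0.86. The 9 all belong to the ER arm, while the 24 come from all arms, so the medians describe unlike sets. Among the 13 were the ER members Pdia3, Pdia4, Dnajb11, Sdf2l1 and Xbp1, and the others were of the integrated stress response. In young liver at 48, 0 of the 9 passed.

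Among the members of the integrated stress response, 8 of 10 rose in old liver at 48 and 0 fell (median log2 fold change 2.04), while in young liver 0 rose and 1 fell (median 0.10). The 8 were Ddit3 (CHOP), Atf4, Atf5, Trib3, Chac1, Sesn2, Nupr1 and Fgf21. These were also the most uneven values within a group. The median SD between the 3 old libraries at 48 was 1.22 on the log2 scale for these 10 genes, against 0.34 for all genes, and in young liver at 48 the 2 values were 0.25 and 0.22. Old replicate 1 at 48 lay above its group's mean for all 10 (median deviation 0.77), and replicate 2 lay below it by a median of 1.02.

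Trib3, a pseudokinase induced by ATF4 and CHOP, had values on opposite sides of the levels before in young and in old liver at 48. Trib3 in young liver was 13.9, 15.2 and 15 CPM before, then 3.59, 3.87 and 4.68 at 48, then 3.24, 5.33 and 8.13 at 72, then 4.68, 11.4 and 10.5 at 96, then 16.1, 9.62 and 8.83 at 120, and 14.1, 8.18 and 9.62 at 240. Trib3 in old liver was 7.24, 4.24 and 4.56 CPM before, then 111, 7.68 and 21.4 at 48, then 15.8, 3.27 and 9.56 at 72, then 9.44, 5.99 and 11.5 at 96, then 31.8, 7.58 and 11 at 120, and 1.54, 7.48 and 8.27 at 240. The young groups before and at 48 did not overlap, nor did the old. The change to 48 was -1.86 ± 0.74 in young (adjusted p = 0.0719) and 3.12 ± 0.71 in old liver (adjusted p = 0.00272). The difference between the ages was 4.98 ± 1.02 (adjusted p = 0.0214; lost without young replicate 1 before or at 48), and the interaction over all time points had an adjusted p of 0.0424. Without old replicate 1 at 48, the old change to 48 was no longer called, and the difference between old and young at 48 was 1.85 in place of 3.53 ± 0.73 (adjusted p = 0.00235) and was still called.

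Ddit3, the transcription factor CHOP that promotes cell death under lasting ER stress, was 6.08, 12.5 and 6.15 CPM in old liver before, then 115, 7.28 and 30.6 at 48, then 25, 18 and 10.3 at 72, then 7.29, 16.3 and 9.55 at 96, then 21.2, 24 and 10.6 at 120, and 14.9, 12.2 and 6.57 at 240. Ddit3 in young liver was 9.14, 12.2 and 7.73 CPM before, then 12.9, 8.27 and 10.1 at 48, then 19.1, 18.4 and 21.6 at 72, then 13.7, 13.1 and 11 at 96, then 9.11, 11.8 and 9.97 at 120, and 7.87, 12.9 and 11.5 at 240. Replicates 1 and 3 of old liver at 48 held its highest values of all 36 libraries, and replicate 2 lay within the range before. The change to 48 in old liver was 2.61 ± 0.57 (adjusted p = 0.00169) and the difference from young at 48 was 2.27 ± 0.55 (adjusted p = 0.00738). Without replicate 1 both calls were lost, and the difference between the ages was 0.85.

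Fgf21, a hormone that liver secretes under nutrient and mitochondrial stress, showed the widest range. Fgf21 in old liver was 2.1, 2.45 and 1.59 CPM before, then 163, 21.8 and 40.2 at 48, then 72.5, 0.934 and 0.956 at 72, then 4.72, 9.5 and 3.65 at 96, then 6.62, 0.91 and 1.02 at 120, and 0.659, 0.34 and 0 at 240. Fgf21 in young liver was 2.7, 2.73 and 1.69 CPM before, then 4.08, 2.07 and 0.984 at 48, then 1.14, 3.39 and 2.8 at 72, then 0.502, 1.33 and 0 at 96, then 0.97, 0.555 and 0.57 at 120, and 1.41, 0.227 and 0.535 at 240. All 3 old libraries at 48 lay above every young library. Its change to 48 in old liver was 5.17 ± 1.12 (adjusted p = 0.00187) and its difference from young at 48 was 4.88 ± 1.08 (adjusted p = 0.00409), or 3.25 without the libraries with Y-linked transcripts (adjusted p = 0.0986). The call at 72 in old liver (3.58 ± 1.11, adjusted p = 0.0347) rested on replicate 1, since without it the change was -1.08 (adjusted p = 0.56).

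Atf5, an ATF4 relative that drives the mitochondrial stress programme, was 468, 641 and 296 CPM in old liver before, then 3620, 616 and 2150 at 48, then 1560, 722 and 393 at 72, then 829, 811 and 1070 at 96, then 2180, 877 and 433 at 120, and 296, 381 and 353 at 240. Atf5 in young liver was 437, 474 and 519 CPM before, then 649, 490 and 600 at 48, then 605, 560 and 484 at 72, then 316, 370 and 565 at 96, then 588, 413 and 449 at 120, and 620, 448 and 496 at 240. The change to 48 in old liver was 2.18 ± 0.50 (adjusted p = 0.0027), with replicate 2 inside the range before. Its difference from young at 48 was 1.87 ± 0.50 (adjusted p = 0.013), lost without old replicate 1 or young replicate 2 at 48. Averaged over the 6 time points it was higher in old liver by 0.72 ± 0.20 (adjusted p = 0.0269), a call lost without old replicate 1 at 72 or at 120 or old replicate 2 before, with no filter on low counts, and without the libraries with Y-linked transcripts (adjusted p = 0.0609).

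Atf4 encodes the central transcription factor of the response. Atf4 in old liver was 163, 170 and 184 CPM before, then 345, 340 and 216 at 48, then 218, 167 and 171 at 72, then 195, 181 and 156 at 96, then 159, 209 and 157 at 120, and 205, 166 and 149 at 240. Atf4 in young liver was 182, 139 and 182 CPM before, then 213, 201 and 216 at 48, then 186, 229 and 233 at 72, then 176, 174 and 199 at 96, then 126, 140 and 156 at 120, and 179, 156 and 150 at 240. It rose in old liver at 48 by 0.80 ± 0.17 (adjusted p = 0.00105), and its change in young liver was 0.32 ± 0.17 (adjusted p = 0.171). The difference from young at 48 was 0.51 ± 0.17 (adjusted p = 0.0402), and it was lost without any of 5 single libraries at 48. ATF4 is regulated at translation, which the counts do not measure.

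Chac1, which degrades glutathione, was 5.14, 1.56 and 5.24 CPM in old liver before, then 16.4, 22 and 4.29 at 48, then 3.89, 0.701 and 3.25 at 72, then 3.43, 0.619 and 3.09 at 96, then 2.65, 4.55 and 4.08 at 120, and 0.439, 1.02 and 4.03 at 240. Chac1 in young liver was 8.31, 6.46 and 3.62 CPM before, then 3.26, 4.91 and 1.97 at 48, then 1.33, 2.42 and 2.03 at 72, then 3.35, 4.36 and 5.24 at 96, then 6.98, 6.1 and 7.69 at 120, and 5.62, 2.04 and 13.9 at 240. Here replicate 2 of old liver at 48 was the highest of all 36 libraries and replicate 3 the low one. The change to 48 in old liver was 1.83 ± 0.62 (adjusted p = 0.0313) and the difference from young at 48 was 2.07 ± 0.63 (adjusted p = 0.0298). Either call was lost without 4 of the single libraries compared, replicates 1 and 2 of old liver at 48 among them.

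**Figure D3:**
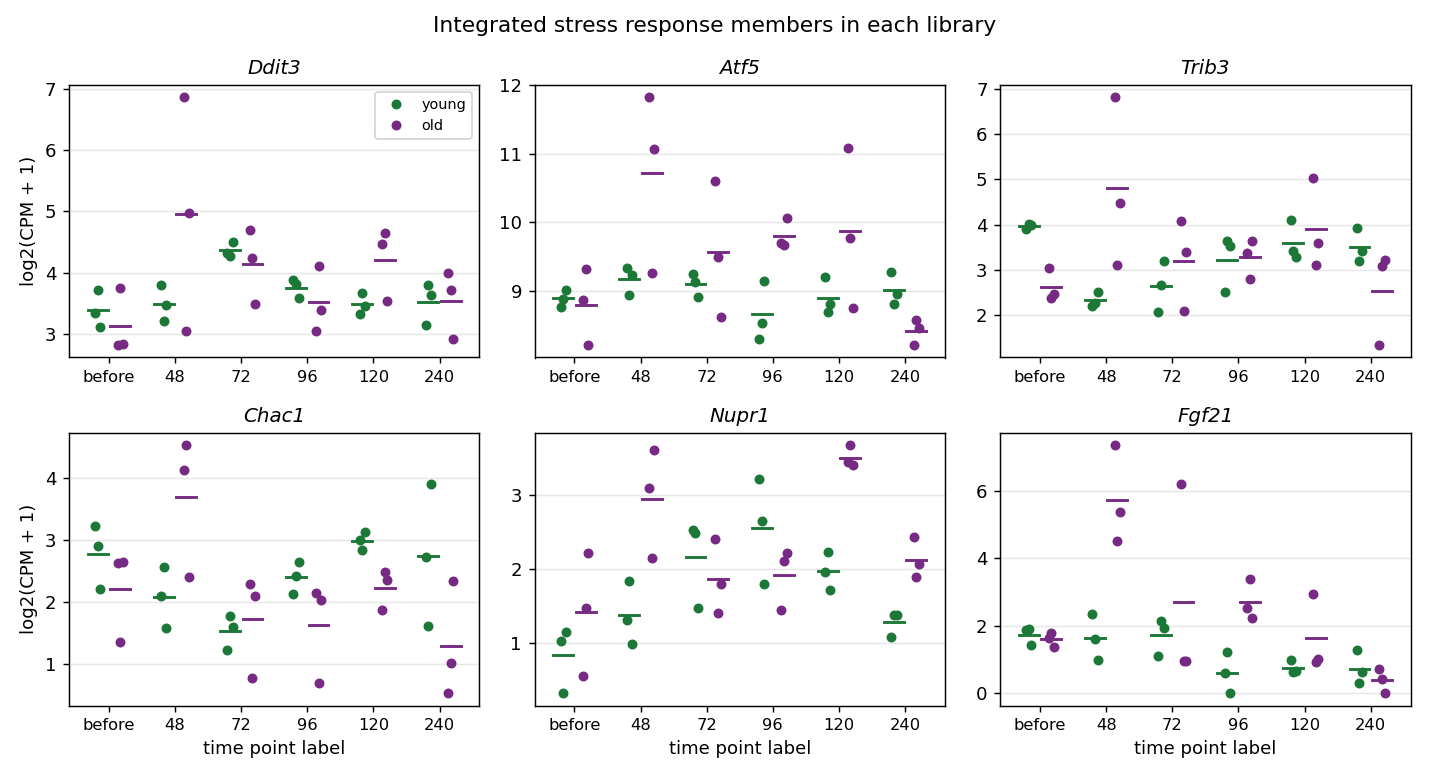
Level of 6 members of the integrated stress response as log2(CPM + 1) in each library (points) by time point label, young in green and old in purple, with the mean of the 3 libraries as a bar. The 3 old libraries at 48 are spread widely for Trib3 (7.68 to 111 CPM), Ddit3 (7.28 to 115 CPM) and Fgf21 (21.8 to 163 CPM).

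Nupr1, a small chromatin protein induced by many stresses, rose in both ages at different time points. Nupr1 in young liver was 1.04, 0.248 and 1.21 CPM before, then 1.47, 2.58 and 0.984 at 48, then 4.77, 4.61 and 1.78 at 72, then 8.36, 5.31 and 2.48 at 96, then 2.91, 3.7 and 2.28 at 120, and 1.12, 1.59 and 1.6 at 240. Nupr1 in old liver was 0.467, 1.78 and 3.64 CPM before, then 7.55, 3.44 and 11.2 at 48, then 4.3, 1.64 and 2.48 at 72, then 1.72, 3.3 and 3.65 at 96, then 9.93, 11.8 and 9.6 at 120, and 4.39, 2.72 and 3.18 at 240. The young rise was called at 72 (2.12 ± 0.61, adjusted p = 0.016) and 96 (2.67 ± 0.59, adjusted p = 0.015), and the old rise at 48 (1.89 ± 0.51, adjusted p = 0.00811) and 120 (2.39 ± 0.51, adjusted p = 0.00754). At 48 old liver was higher than young by 2.14 ± 0.52 (adjusted p = 0.00679), with no overlap, and by 1.89 without the libraries with Y-linked transcripts (adjusted p = 0.0705). The courses differed between the ages (interaction adjusted p = 0.0376), and the average over time points was higher in old liver by 0.85 ± 0.22 (adjusted p = 0.0203). The young libraries before lie at or near the value of 3 counts, so the young changes rest on few reads, and leaving out any of 5 of the 6 libraries compared ended the young call at 96, and any of 3 (young replicate 2 before, replicates 1 and 2 at 72) that at 72. The interaction was lost without any of 18 of the 36 libraries, and the call of the average was lost without old replicate 3 before and without the 12 libraries with Y-linked transcripts (adjusted p = 0.107).

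Ppp1r15a (GADD34), which directs the phosphatase that restores translation, went the other way. Ppp1r15a in young liver was 35.3, 45 and 41.5 CPM before, then 17.1, 16.8 and 17.5 at 48, then 18.5, 22.6 and 14.7 at 72, then 19.4, 18 and 17.1 at 96, then 19, 17.6 and 15.7 at 120, and 25.6, 22.3 and 17.4 at 240. Ppp1r15a in old liver was 28.5, 31.9 and 33 CPM before, then 25.3, 31.9 and 15.5 at 48, then 14.8, 13.1 and 26 at 72, then 19.3, 12.2 and 16.9 at 96, then 28.8, 17 and 14.7 at 120, and 15.2, 14.6 and 14.8 at 240. Every young library at a later time point lay below the young libraries before. It fell by 1.24 ± 0.25 at 48 in young liver (adjusted p = 0.000422), and falls were called at 72, 96 and 120 in young and at 72 and 96 in old liver. Of these, the calls in young liver at 96 and 120 and both in old liver were each lost without 3 or 4 of the 6 single libraries compared, replicates 2 and 3 before of the same age among them. Of 11 immediate early genes such as Fos and Egr1, 9 fell at 48 in young liver, and in old liver 5 fell and 1 rose. Their sum was 1250 to 3110 CPM in young liver before and 468 to 566 CPM at 48, and 1090 to 2720 CPM in old liver before and 420 to 992 CPM at 48. At 72 to 240 the sum was 243 to 781 CPM over both ages, so every later library lay below those before of its age. The part of these genes in the falls of Ppp1r15a and Herpud1, and in the other comparisons with before, was not tested.

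Asns, asparagine synthetase, was 27.8, 0.404 and 2.04 CPM in old liver at 48 and at 0 in 6 of the 36 libraries, and its change of 3.40 ± 1.52 did not pass (adjusted p = 0.104). Sesn2, a sensor that restrains mTORC1, rose in old liver at 48 (0.93 ± 0.27, adjusted p = 0.0121), and the call was lost without replicate 1. Of the 5 members with an amino acid response element, Chac1, Nupr1 and Fgf21 rose in old liver at 48, Herpud1 fell and Asns did not pass, with a median of 1.89 over the 5. The 28 without it had a median of 0.83, but most of them belong to the ER and heat shock arms, so the medians describe unlike sets.

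Heat shock members were tested in 6 cases, and Hsp90aa1 was the only one called against before. In old liver at 48, 1 of 6 rose and 0 fell (median log2 fold change 0.44), and in young liver likewise 1 of 6 rose and 0 fell (median 0). Hsp90aa1 encodes the inducible form of cytosolic HSP90. Hsp90aa1 in young liver was 116, 126 and 184 CPM before, then 392, 316 and 494 at 48, then 253, 284 and 238 at 72, then 148, 180 and 130 at 96, then 125, 154 and 158 at 120, and 127, 169 and 132 at 240. Hsp90aa1 in old liver was 141, 112 and 120 CPM before, then 355, 276 and 248 at 48, then 297, 447 and 285 at 72, then 478, 321 and 217 at 96, then 227, 211 and 177 at 120, and 331, 147 and 127 at 240.

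Hsp90aa1 rose at 48 by 1.5 ± 0.29 in young (adjusted p = 0.000273) and 1.24 ± 0.28 in old liver (adjusted p = 0.00249), with no overlap with the libraries before. The rise was called at 72 in young (0.87 ± 0.28, adjusted p = 0.0329, lost without replicate 1 or 2 of either group) and at 72 and 96 in old liver (1.46 ± 0.29 and 1.44 ± 0.29, adjusted p = 0.00129 and 0.00327). At 96 every old library lay above every young library, with a difference of 1.15 ± 0.28 (adjusted p = 0.0613), and the difference between the ages in the change from before to 96 was 1.34 ± 0.40 (adjusted p = 0.323). The 10 cell cycle markers were high in many of the same groups. They summed to 2050 to 3830 CPM in young liver at 48, 598 to 2220 at 72 and 266 to 550 at 96, and in old liver to 62.9 to 796 CPM at 48, 882 to 1820 at 72 and 440 to 1540 at 96. In old replicate 2 at 48 the cell cycle sum was 62.9 CPM, below the 79.2 to 151 CPM of the libraries before, and Hsp90aa1 was 276 CPM. The part of the cell cycle in the Hsp90aa1 values was not tested.

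Hspb1, the small heat shock protein HSP27, was higher in old liver on average over the 6 time points. Hspb1 in young liver was 3.74, 2.24 and 2.42 CPM before, then 3.1, 3.1 and 2.46 at 48, then 0.572, 1.45 and 2.54 at 72, then 2.17, 2.09 and 0.552 at 96, then 1.55, 1.48 and 1.71 at 120, and 2.25, 1.14 and 1.07 at 240. Hspb1 in old liver was 4.21, 1.12 and 2.28 CPM before, then 10.2, 3.03 and 3.06 at 48, then 6.56, 4.2 and 2.1 at 72, then 8.58, 5.16 and 5.62 at 96, then 2.98, 1.21 and 3.06 at 120, and 3.29, 5.1 and 1.91 at 240. The average difference was 0.99 ± 0.23 (adjusted p = 0.00853), and the call held in every alternative fit and without each of the 36 libraries in turn. At 96 the ages did not overlap (1.89 ± 0.54, adjusted p = 0.106), and before they did (-0.16 ± 0.55, adjusted p = 0.996).

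Dnajb1, the HSP40 partner of HSP70, was 35.1, 40.5 and 30.4 CPM in young liver before, then 49.9, 47.5 and 47.2 at 48, then 27.1, 38.1 and 30.2 at 72, then 38.8, 27.1 and 27.3 at 96, then 19.6, 26.6 and 32.2 at 120, and 32.3, 41.8 and 31.3 at 240. Dnajb1 in old liver was 28, 40.1 and 29.8 CPM before, then 44.2, 22.8 and 32.5 at 48, then 40.2, 40.9 and 34.8 at 72, then 31.3, 38.6 and 28.9 at 96, then 26.8, 30.9 and 27.4 at 120, and 73.8, 42.8 and 36.1 at 240. The young libraries at 48 lay above those before (0.45 ± 0.23, adjusted p = 0.172), and neither this nor the old change to 240 (0.64 ± 0.23, adjusted p = 0.434) was called.

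The inducible chaperones Hspa1b and Hsph1 (HSP110) varied widely between libraries of some groups. In old liver at 48 Hspa1b was 20.9, 1.21 and 16.7 CPM, the 1.21 of replicate 2 being the lowest of all 36 libraries, and Hsph1 was 120, 20.2 and 82.5 CPM, again lowest in replicate 2. That replicate had the highest sum of the cold-inducible genes, given above. In old liver at 240 Hspa1b was 36.9, 12.2 and 9.54 CPM and Hsph1 179, 74.1 and 84.6 CPM, with replicate 1 the highest of all libraries for both, and for Hspa8 (815 CPM, the constitutive HSC70) and Dnajb1. All 6 tested heat shock members had a higher mean in old than in young liver at 240 (median 0.52, 0 called). Old replicate 1 at 240 lay above its group's mean for all 6, and replicates 2 and 3 for 1 and 0 of them. What set these single libraries apart was not tested.

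**Figure D4:**
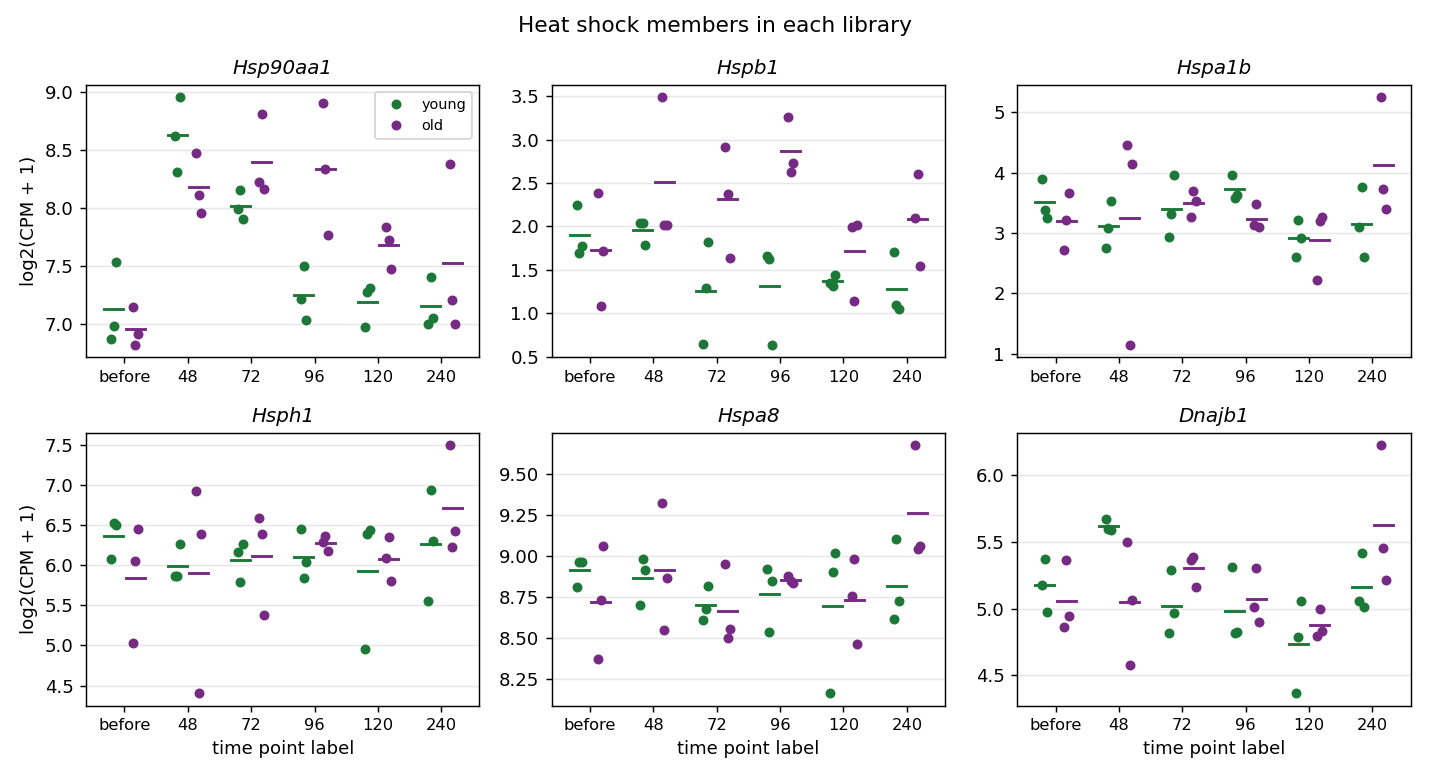
Level of the 6 tested heat shock members as log2(CPM + 1) in each library (points) by time point label, young in green and old in purple, with the mean of the 3 libraries as a bar. Hsp90aa1 was higher in all libraries at 48 than before, while single old libraries at 48 (Hspa1b 1.21 CPM) and 240 (Hspa1b 36.9 CPM) lie far from the rest.

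The shares of all genes called at 48 were 12.2% higher and 9.79% lower in young liver, 12.1% and 12% in old liver, and 4.42% and 6.78% between the ages, and the other genes of the same pathways are read against these. Of 55 further ER proteostasis genes, 18 rose and 2 fell in young liver at 48 and 23 rose and 1 fell in old liver, with medians of 0.30 and 0.33. Between the ages at 48, 0 of them were higher and 2 lower in old liver. Calu, an ER calcium-binding protein, rose in both ages (1.14 ± 0.18 in young, adjusted p = 2.7e-05, and 1.05 ± 0.18 in old, adjusted p = 0.000164). Ssr2, of the translocon-associated complex, rose by 0.69 ± 0.17 (adjusted p = 0.0028) and 1.07 ± 0.17 (adjusted p = 6.94e-05), and Vimp, which helps export misfolded proteins, by 0.91 ± 0.18 and 1.09 ± 0.18 (adjusted p = 0.000464 and 0.000163). Txndc5 rose in young liver (0.90 ± 0.15, adjusted p = 5.95e-05), Derl2 fell in both ages (-0.79 and -0.47, adjusted p = 0.000683 and 0.0335), and Erlec1 fell in young liver (-0.40 ± 0.13, adjusted p = 0.0323).

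Of 40 tested further genes of the integrated stress response, 3 rose and 4 fell in young liver at 48, shares below or near those of all genes, and 11 rose and 3 fell in old liver. Between the ages at 48, 4 were higher and 1 lower in old liver. Psat1, of serine synthesis, rose in both ages (3.08 ± 0.66 in young, adjusted p = 0.000989, and 4.54 ± 0.63 in old, adjusted p = 1.67e-05), as did Mthfd2, a mitochondrial folate enzyme (3.24 ± 0.70 and 3.01 ± 0.73, adjusted p = 0.000967 and 0.00365). Slc3a2, the heavy chain of amino acid transporters, rose in old liver (1.36 ± 0.25, adjusted p = 0.000279). Gdf15 and Phgdh fell in young liver (-2.37 ± 0.54 and -3.90 ± 0.97, adjusted p = 0.00223 and 0.00415), and Cth fell in old liver (-2.68 ± 0.69, adjusted p = 0.00688). Ppp1r15b, the constitutive partner of the same phosphatase as Ppp1r15a, fell in young (-0.44 ± 0.16, adjusted p = 0.0429) and in old liver (-0.49 ± 0.16, adjusted p = 0.0223).

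Of 39 further heat shock genes, 7 rose and 2 fell in young liver at 48, and 9 rose and 2 fell in old liver. Between the ages at 48, 0 were higher and 2 lower in old liver. Ier5, a regulator of HSF1, rose in young liver by 2.2 ± 0.32 (adjusted p = 1.12e-05) and in old liver by 1.14 ± 0.30 (adjusted p = 0.0061). The chaperonin subunit Cct7 rose by 0.65 ± 0.18 in young and 0.57 ± 0.18 in old liver (adjusted p = 0.00977 and 0.0229), and the HSP90 activator Ahsa1 by 0.59 ± 0.19 and 0.83 ± 0.19 (adjusted p = 0.0222 and 0.00216). Cct3, another chaperonin subunit, rose in old liver (1.2 ± 0.21, adjusted p = 0.000257). Dnajb4 fell in young (-0.71 ± 0.24, adjusted p = 0.0341) and Hspa2 in old liver (-0.98 ± 0.34, adjusted p = 0.0354).

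**Figure D5:**
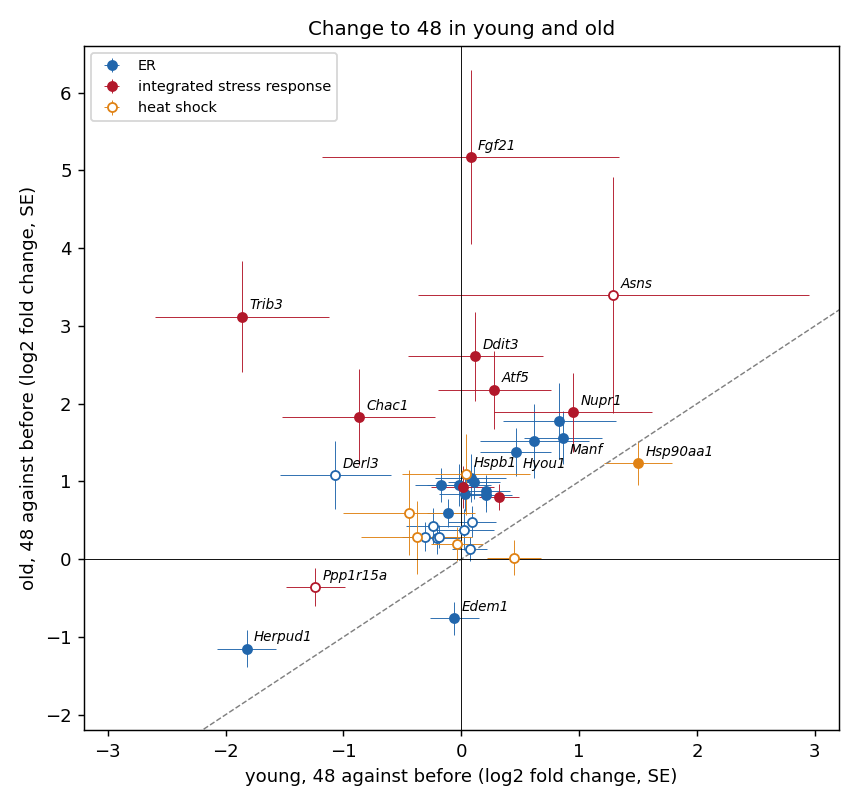
Log2 fold change from before to 48 of the 38 tested members in young (horizontal) and old liver (vertical), with SE bars, filled where the adjusted p in old liver was under 0.05, and a dashed line of equal change. Fgf21 and Trib3 lie far above the line (5.17 and 3.12 in old against 0.08 and -1.86 in young), while Hsp90aa1 and Edem1 lie below it.

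The count at 48 depended on which libraries entered the fit. The fit above used all 36 libraries. In a fit of only the old libraries before and at 48, which also filtered genes anew, 2 members were called, Fgf21 and Hsp90aa1, with 33 of 36 tested members above 0 and 221 of 12328 genes called. A fit of only old and young libraries at 48 called 0 members and 1 of 12208 genes. Without the 12 libraries with Y-linked transcripts, 18 members were called in old liver at 48 against before, and 2 in old against young at 48, 1 higher and 1 lower. Of the 9 members called between the ages at 48, Calr alone was then called (0.73, adjusted p = 0.0404), and the calls of Derl3 and of all 7 members of the integrated stress response were lost, with differences of 0.41 to 3.25 and adjusted p of 0.0502 to 0.333. The member called lower in that fit was not among these 9. The share of all genes called in that fit is not given here, so the counts of 18 and 2 have no background beside them. Other cell types and states differed beside these changes. In old liver at 48 the Kupffer cell and monocyte sum was 205 to 742 CPM against 742 to 1020 CPM before, and 11 of 14 clock genes were called at 48 in each age. Their part in the results was not tested.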

How the data were processed

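Total RNA depleted of ribosomal RNA was sequenced from 36 liver libraries, per the labels' protocols. The deposited values are raw whole-number counts per gene symbol, 1 table per library, not normalized. The submitters' processing notes name bcl2fastq 2.20.0, Trimmomatic 0.39, STAR 2.7.5b, SAMtools 1.10, Picard 2.20.8, featureCounts and the builds GRCm38 and mm10. The annotation and the use of strand are not given in the sources used here, so reads of overlapping and antisense genes cannot be told apart. The protocols describe ERCC spike-ins, but 0 such rows were in the tables used, and changes in total RNA are not visible.

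Counts were fitted with edgeR 4.0.16 in R 4.3.3 (filterByExpr, TMM, robust quasi-likelihood) in 1 model of all 36 libraries with a mean per group and no block, and p-values were adjusted by Benjamini-Hochberg over 13436 genes in each comparison. CPM used TMM-scaled totals, and figures use log2(CPM + 1), with a pseudocount of 1. Fold changes are log2 with the SE of the fit. With 3 libraries per group, p-values of this model rest on an estimate of spread per gene that all groups share. They do not measure the spread within the groups compared alone. For the integrated stress response that spread was widest in old liver at 48 (median SD 1.22 on the log2 scale, against 0.25 in young liver at 48). The code was tested on simulated counts. The alternative fits used DESeq2's median-of-ratios factors, scaling by total count, no filter or a stricter one, the replicate number as a block, a term for Y-linked transcripts or the libraries without them, only the groups compared, DESeq2 1.42.0, and all but 1 library. Motifs were searched in RefSeq promoters of GRCm38.p6.

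The members and the gene lists were chosen with earlier results of these data known. All members are named whatever their result. Values of every library are given for members called between the ages or by the interaction and for the 3 with the smallest p against before in each group. Of the other lists, the 2 genes called higher and the 2 called lower with the smallest p at 48 in each age are named. A gene that this rule selects in the heat shock list is not reported here.

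Whether equal replicate numbers pair libraries was checked by the correlation of their deviations from the group means. All 3 pairs were over 0.1 in 5 of 16 comparisons (young before with 120 and with 240, old before with 96 and with 240, and young with old at 240). Any pairing is read from the values, since the labels name no shared animal or batch, and the block is nested in age. In all 5, replicate 1 held the Y-linked transcripts in both groups. In old before with 48, and in young with old before and at 72, equal numbers held them too, without all pairs over 0.1. Where the numbers differed, no comparison had all pairs over 0.1. The part of Y-linked transcripts in these correlations was not tested.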

Additional observations from a re-analysis of the deposited data

Results flagged for a closer look

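Trib3, Calr and Nupr1 changed over time in a way that differed between young and old liver, by the test of that difference. The adjusted p of the age by time interaction was 0.0339 for Calr, 0.0376 for Nupr1 and 0.0424 for Trib3 (edgeR's quasi-likelihood test). For Trib3 the change from before to 48 was larger in old than in young liver by 4.98 on the log2 scale. Leaving out single libraries ended the interaction call in 11 of 36 cases for Calr, 18 for Nupr1 and 24 for Trib3, and the highest adjusted p over all alternatives was 0.0894, 0.221 and 0.283. The direction of the Trib3 difference to 48 was the same in each alternative that gave a value, from 3.30 to 5.48, and 2 of the 12 fits without a single library ended its call.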

How the results depend on the processing

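Counts of called members are given here, with the count of the main analysis first. The shares of all genes called are not given beside them, here or for the fits without single libraries. A higher or lower count is therefore not read as a result about the members. With total-count scaling, counts in old liver went from 5 to 8 at 72, 3 to 8 at 96 and 4 to 8 at 120. With the replicate number as a block, they were 7 at 96 and 8 at 120 in old liver, 1 in place of 0 in old against young at 96 (Hsp90aa1), and 2 in place of 1 for the difference between the ages in the change to 48, and no other count moved by over 1.5 times. Of the single calls, the block ended that of Fgf21 at 72 in old liver (2.48, adjusted p = 0.0843). With a term for Y-linked transcripts, they were 8, 7 and 8 at 72, 96 and 120 in old liver, 1 in old against young at 96, and 2 for the difference to 48. Without the libraries that hold these transcripts, they were 0 (from 2) at 96 and 1 (from 2) at 120 in young liver, 11, 7 and 13 at 72, 96 and 120 in old liver, 2 (from 9) in old against young at 48, 1 (from 3) in the average, 0 for the difference to 48 and 3 (from 0) for the difference to 120. In fits of only the groups compared, they were 6 (from 3) at 48 in young liver, 2 at 48, 72 and 120 in old liver, 0 in old against young at 48, 1 at 96 and 1 at 120, and 0 for the difference to 48. DESeq2 gave 4 at 96 in young liver, 8, 9 and 1 at 96, 120 and 240 in old liver, 1 in old against young at 96, 9 in the interaction and 4 for the difference to 48. The other filters and median-of-ratios factors moved no count by over 1.5 times. The cause of these shifts was not tested.

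Leaving out each library in turn gave 3 to 5 members at 48, 2 to 6 at 72, 0 to 1 at 96 and 0 to 2 at 120 in young liver. In old liver it gave 15 to 24 at 48, 2 to 10 at 72, 2 to 11 at 96 and 1 to 12 at 120. At 72 to 120 the highest counts in old liver came without replicate 1 before and the lowest without replicate 2 or 3 before. In old against young it gave 5 to 12 at 48, 0 to 1 at 96, 2 to 3 in the average, 0 to 6 in the interaction and 0 to 5 in the difference to 48. The change of Fgf21 at 72 in old liver ranged from -1.08 without old replicate 1 at 72, a reversal, to 4.15 without replicate 3. The mean correlation of the deviations of equally numbered libraries was 0.096 over 30 pairs of before and later (16 over 0.1) and 0.057 over 18 pairs of young and old (7 over 0.1). A depth of 2328233 to 6034446 counts limits Nupr1, Derl3, Chac1, Hspb1, Asns and Fgf21, each with libraries of 3 counts or fewer.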
